A study of Homo sapiens with 12 samples.

Results

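Simple epithelial keratins are the intermediate filament proteins of single-layered and glandular epithelia, and 5 of their genes were followed: KRT7, KRT8, KRT18, KRT19 and KRT80. The members were taken by symbol from the deposited table of read counts, which holds 25382 symbols, and all 5 were found and passed the filter on low counts. The table holds 50 other keratin genes. The RNA came from Cal27, an established human line of tongue squamous carcinoma, labelled wild type and grown on collagen-coated polyacrylamide gels. Each of 4 conditions had 3 libraries, and every condition had a conditioning phase of 5 days followed by 1 day after replating. Soft-to-soft cells were conditioned and replated on soft gels of 0.48 kPa. Stiff-to-soft cells spent the conditioning on stiff gels of 20 kPa and were replated on 0.48 kPa. LPA-to-soft cells were conditioned on 0.48 kPa with lysophosphatidic acid (LPA), a lipid that signals through G protein-coupled receptors, and replated on 0.48 kPa without it. LPA-to-FAKi cells were conditioned with LPA in the same way, then replated on 0.48 kPa in the presence of a drug that inhibits focal adhesion kinase (FAK), a kinase of cell-matrix contacts. The series design asks whether cells remember the conditioning. It puts stiff-to-soft and LPA-to-soft in a class that learned, and soft-to-soft and LPA-to-FAKi in a class that did not learn or forgot. Whether replicates are separate cultures is not in the labels, and p-values therefore cover only the spread among these libraries, which may be technical.

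Keratins form filaments from pairs of a type I and a type II protein. KRT8 and KRT18 are the type II and type I partners of nearly all simple epithelia and among the first keratins of the embryo. KRT7 is a type II keratin of glandular, ductal and transitional epithelia. KRT19 is a short type I keratin, and KRT80 is a type II keratin found in many epithelia. Stratified squamous epithelium, the tissue from which squamous carcinomas arise, mainly makes other pairs, such as KRT5 with KRT14 in its basal layer, and squamous carcinomas often also express KRT8 and KRT18. In RefSeq's gene order on GRCh38, KRT8 and KRT18 are next to each other on chromosome 12, KRT80 and KRT7 are next to each other elsewhere in the same keratin cluster, and KRT19 is on chromosome 17 between KRT15 and KRT9.

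Stretches of the members' transcripts also occur in other genes, and a short read from such a stretch may not be placed on 1 gene. Over whole coding sequences of GENCODE 29 transcripts on GRCh38, KRT7 and KRT8 were the most alike pair, with 76.8% of 1346 aligned bases identical. The other 9 pairs lay between 64.5% and 68.7%. Of all 50-base windows of a member's transcript, 47.6% in KRT18 and 36.9% in KRT8 also occurred in transcripts of other genes, on either strand. Most of these genes were pseudogenes named after the member: 43 of the 45 sharing windows with KRT18, and 33 of the 42 sharing with KRT8. Because matches on the opposite strand were included, these are not shares of reads that could not be placed. KRT7 shared 10.8% of its windows with 9 genes, among them its antisense gene KRT7-AS and the keratins KRT6A, KRT6B, KRT6C and KRT76. KRT8 and KRT18 also shared windows with each other. KRT19 shared 1.79% and KRT80 0.42%, the latter with KRT8 and a KRT8 pseudogene. The labels and the submitters' processing notes do not state how reads that fit several genes were counted, or with which strand setting, so the levels of KRT8, KRT18 and KRT7 carry that uncertainty. The pseudogene symbols KRT8P41, KRT18P55 and KRT19P2 of the count table held 26, 19 and 7 counts over all 12 libraries.

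Total counts ran from 62953957 to 122311183 per library. In soft-to-soft replicates 1 and 2, 42.9% and 42.2% of counts from 1 to 19 were even, against 96.8% to 97.8% in the other 10 libraries, so results against soft-to-soft were also computed without them. After the mean of each condition was removed, libraries with the same replicate number correlated over genes (r from 0.312 to 0.659). Between libraries with different numbers r ran from -0.517 to 0.0372. Subtracting a mean of 3 libraries itself pushes these values below 0, so they are no separate evidence of pairing. Genes were therefore tested with edgeR's quasi-likelihood test both without the replicate number and with it as a block, over 15437 genes, and called at a Benjamini-Hochberg adjusted p under 0.05. All 8 squamous carcinoma markers had counts in every library and summed to 5946 to 15876 CPM (counts scaled to the library size, with TMM factors). Of cell types a Cal27 culture should lack, mesothelial markers summed to 29.6 to 62.7 CPM, fibroblast markers to 14.6 to 36.4, endothelial markers to 8.39 to 39.1 and leukocyte markers to 13.9 to 47.5. The leukocyte genes CD3E and TYROBP had no count in any library, and PTPRC, WT1, PECAM1, KDR and DCN were at 0 in at least 7 of 12 libraries. Other genes of these lists had more counts: 5 of 6 mesothelial, 4 of 8 fibroblast, 3 of 6 endothelial and 3 of 8 leukocyte markers passed the filter. The highest of them were BNC1 (22.7 to 56.2 CPM), COL1A1 (12.7 to 30.9), CDH5 (4.40 to 36.3) and CD68 (9.49 to 41.9), and the part of such cells in the results was not tested.

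Among these keratins, KRT8 and KRT18 were abundant, KRT80 and KRT7 lower, and KRT19 close to the bottom. On the scale of CPM per kilobase of transcript, averaged over the 12 libraries, KRT8 reached 442 ± 197 (SD, n = 12) and KRT18 441 ± 136, and they ranked 4 and 5 among 55 keratin genes. KRT80 followed with 113 ± 40.1 at rank 9, KRT7 with 30.9 ± 11.8 at rank 12 and KRT19 with 1.76 ± 0.499 at rank 21. The basal and stress keratins KRT5, KRT17 and KRT6A stood above them with 1698 ± 397, 1309 ± 577 and 820 ± 528. KRT8 and KRT18 did not differ beyond their spread over libraries. KRT20, an intestinal keratin, never exceeded 1.06 CPM, and KRT23, a keratin of glandular epithelia, lay between 7.93 and 51.7 CPM.

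**Figure D1:**
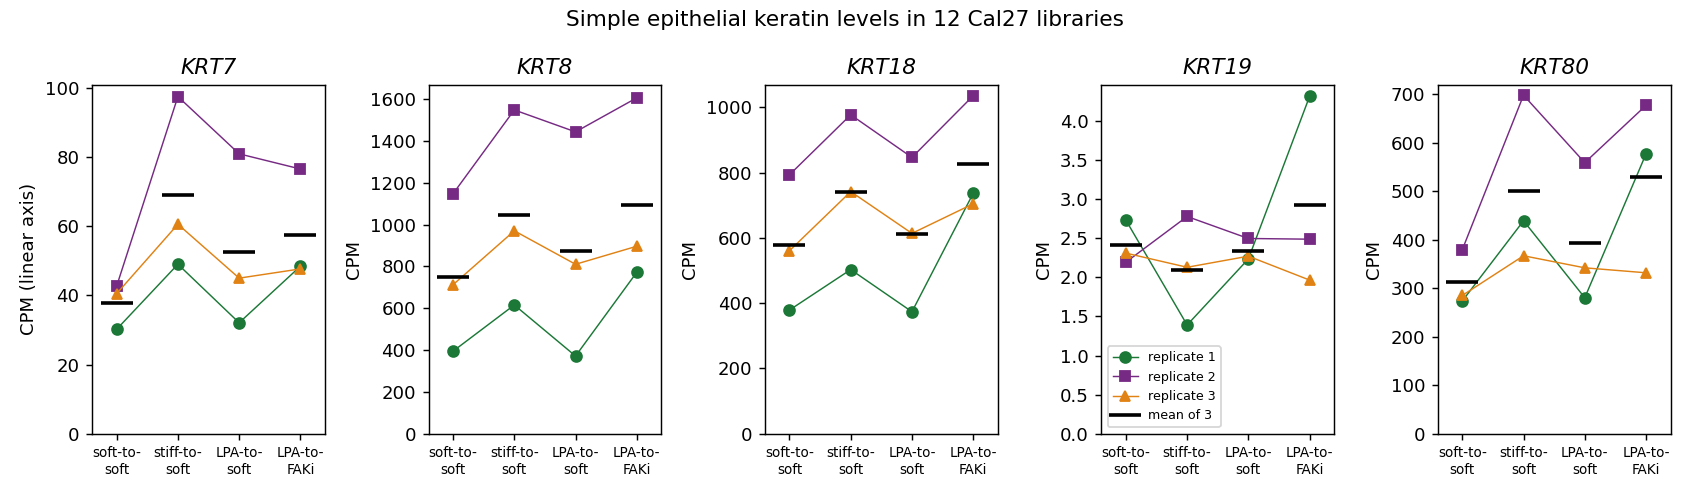
Levels of the 5 genes (CPM with TMM scaling, linear axes from 0) in the 12 libraries by condition. Symbols and thin lines join libraries of 1 replicate number and black bars are means of 3; replicate 2 is the highest line in every condition for KRT7, KRT8, KRT18 and KRT80, and soft-to-soft has the lowest mean for these 4.

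KRT7 was higher after stiff conditioning than in cells kept soft, by 0.81 ± 0.15 on the log2 scale once replicate number was blocked. KRT7 measured 30.2, 42.7 and 40.5 CPM in soft-to-soft replicates 1, 2 and 3. It measured 49.0, 97.4 and 60.5 CPM in stiff-to-soft replicates 1, 2 and 3. All 3 stiff-to-soft libraries lay above all 3 soft-to-soft libraries. Stiff-to-soft was the highest of the 4 conditions within every replicate number, as it was for 2.34% of all genes tested. LPA-to-soft gave 32.1, 80.9 and 44.97 CPM, and LPA-to-FAKi 48.4, 76.5 and 47.6. Soft-to-soft was the lowest condition within each replicate number. The condition means ordered soft-to-soft (37.8 ± 6.66, n = 3), LPA-to-soft (52.6 ± 25.3), LPA-to-FAKi (57.5 ± 16.4) and stiff-to-soft (69.0 ± 25.3), and neighbours in that order differed by less than the larger of their SDs. These SDs contain the spread between replicate numbers.

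With the replicate block, KRT7 was the 1 member of 5 called between stiff-to-soft and soft-to-soft (edgeR adjusted p = 0.0402, higher in 3 of 3 replicate numbers). The differences within replicate numbers were 0.70, 1.19 and 0.58 on the log2 scale. In that fit 0.583% of all genes tested were called, 0.24% as higher and 0.343% as lower. Groups that did not overlap, with stiff-to-soft higher, were found for 2.16% of genes. Without the block the estimate was 0.87 ± 0.35 (edgeR adjusted p = 1), and 0 members and 0% of genes were called in edgeR, with 1.94% of genes at an unadjusted p under 0.05 (10.2% with the block). DESeq2 without the block called 4 genes, none of them a member. Without the block no member was called in any comparison of conditions or classes by edgeR, DESeq2 or limma voom. The call of KRT7 depended on single libraries: with the block it held in 4 of 12 fits that left 1 library out, without LPA-to-soft replicate 1, LPA-to-soft replicate 2, LPA-to-FAKi replicate 1 or LPA-to-FAKi replicate 3. The other 8 fits, among them every fit without a stiff-to-soft or a soft-to-soft library, gave edgeR adjusted p-values up to 0.196. Without soft-to-soft replicates 1 and 2, the blocked estimate was 0.54 ± 0.17 (edgeR adjusted p = 0.725).

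KRT8, the type II partner of KRT18, measured 395, 1147 and 713 CPM in soft-to-soft replicates 1, 2 and 3 and 616, 1548 and 970 CPM in stiff-to-soft. It measured 372, 1443 and 810 CPM in LPA-to-soft and 772, 1606 and 896 CPM in LPA-to-FAKi. The replicate numbers stood further apart than the conditions: replicate 2 was above replicate 1 by 1.06 to 1.96 on the log2 scale in every condition. Groups of conditions overlapped throughout. The condition means were 752 ± 378 CPM in soft-to-soft (n = 3), 875 ± 539 in LPA-to-soft, 1045 ± 470 in stiff-to-soft and 1091 ± 450 in LPA-to-FAKi, all within 1 SD of each other. These SDs contain the spread between replicate numbers. Within numbers 1, 2 and 3, stiff-to-soft differed from soft-to-soft by 0.64, 0.43 and 0.445 on the log2 scale. LPA-to-FAKi differed from it by 0.97, 0.48 and 0.33, and LPA-to-soft by -0.09, 0.33 and 0.18.

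KRT18, the type I partner, measured 379, 793 and 560 CPM in soft-to-soft and 503, 977 and 742 CPM in stiff-to-soft. It measured 374, 846 and 614 CPM in LPA-to-soft and 736, 1035 and 704 CPM in LPA-to-FAKi. Its order of conditions was the order of KRT8 within each replicate number: LPA-to-FAKi was highest in numbers 1 and 2 and stiff-to-soft in number 3. The condition means were 577 ± 208 CPM in soft-to-soft, 611 ± 236 in LPA-to-soft, 740 ± 237 in stiff-to-soft and 825 ± 183 in LPA-to-FAKi (n = 3 each), and neighbours in that order differed by less than their SDs, which contain the spread between replicate numbers.

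KRT80 measured 274, 380 and 285 CPM in soft-to-soft and 439, 698 and 367 CPM in stiff-to-soft. It measured 281, 559 and 342 CPM in LPA-to-soft and 577, 677 and 332 CPM in LPA-to-FAKi. Soft-to-soft was the lowest condition within each replicate number, as for KRT7, a position that 2.46% of all genes tested had. The groups overlapped through soft-to-soft replicate 2, which lay above stiff-to-soft replicate 3 and LPA-to-FAKi replicate 3. The means were 313 ± 58.1 CPM in soft-to-soft, 394 ± 146 in LPA-to-soft, 502 ± 174 in stiff-to-soft and 529 ± 178 in LPA-to-FAKi (n = 3 each).

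KRT19, the type I keratin without a long tail domain, was barely expressed. It measured 2.73, 2.19 and 2.31 CPM in soft-to-soft, 1.39, 2.78 and 2.13 in stiff-to-soft, 2.24, 2.50 and 2.27 in LPA-to-soft and 4.31, 2.49 and 1.97 in LPA-to-FAKi. These values rest on 204 and 138 counts in soft-to-soft replicates 1 and 2, and on 154 to 339 counts in the other libraries. Low counts of these 2 sets of libraries differ in their share of even numbers, so 1 count may not mean the same in both. No condition was highest or lowest in more than 1 replicate number, and the means of 2.41 ± 0.283, 2.10 ± 0.694, 2.33 ± 0.142 and 2.92 ± 1.23 CPM (n = 3 each, in the same order) differed by less than their spread. Its highest value, in LPA-to-FAKi replicate 1, stood apart from the other libraries.

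In the comparison of stiff with soft conditioning, KRT80, KRT8 and KRT18 had estimates of the same sign as KRT7 but were not called in edgeR. With the block KRT80 differed by 0.64 ± 0.16 on the log2 scale (edgeR adjusted p = 0.134), KRT8 by 0.51 ± 0.14 (adjusted p = 0.175) and KRT18 by 0.37 ± 0.13 (adjusted p = 0.27). Each was higher after stiff conditioning in 3 of 3 replicate numbers, which held for 14.6% of all genes tested. KRT19 differed by -0.20 ± 0.30 (adjusted p = 0.904) and was lower in 2 of 3. The median over the 5 genes was 0.505 (4 of 5 positive), against -0.0023 over all genes tested. Leaving out LPA-to-FAKi replicate 1, a library of neither group that enters the shared estimate of the spread, brought KRT7, KRT8, KRT18 and KRT80 under the threshold with the block (edgeR adjusted p = 0.0198, 0.0355, 0.0184 and 0.0314), and raised the count of all genes called from 90 to 228. DESeq2 with the block called KRT7 and KRT8 (adjusted p = 2.33e-05 and 0.022), among 456 genes.

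**Figure D2:**
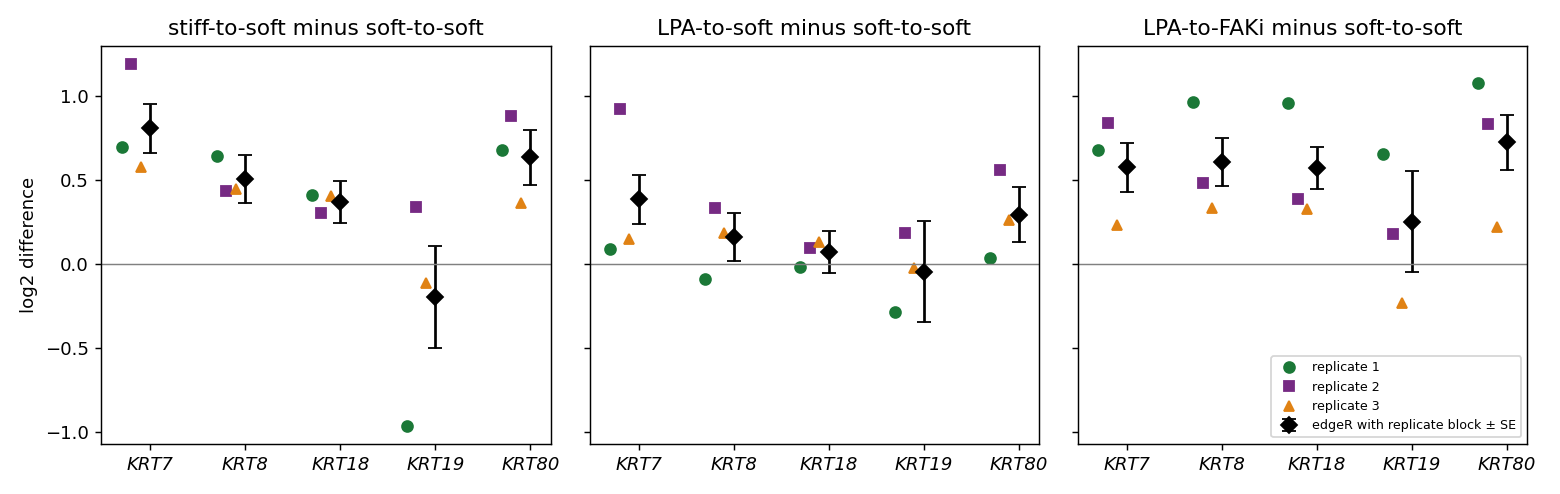
Log2 differences of each condition from soft-to-soft for the 5 genes: coloured symbols are the differences within replicate numbers 1, 2 and 3, and black diamonds are edgeR estimates with the replicate block ± SE. In the stiff-to-soft panel all 3 symbols of KRT7, KRT8, KRT18 and KRT80 lie above 0; the panels share the soft-to-soft libraries.

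After LPA conditioning no member was called against soft-to-soft. With the block KRT7 differed by 0.38 ± 0.14 on the log2 scale (edgeR adjusted p = 0.564), from 0.09 in replicate number 1 to 0.92 in number 2. KRT80 differed by 0.29 ± 0.16, KRT8 by 0.16 ± 0.14, KRT18 by 0.07 ± 0.13 and KRT19 by -0.05 ± 0.30. Of the 5 genes 0 were called with or without the block, as were 0% of all genes tested, with 7.97% at an unadjusted p under 0.05 with the block and 1.37% without. KRT7 and KRT80 were higher in 3 of 3 replicate numbers, which held for 15.8% of genes.

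Stiff and LPA conditioning were compared directly, and no member was called. KRT7 was 0.42 ± 0.14 higher on the log2 scale in stiff-to-soft than in LPA-to-soft with the block (edgeR adjusted p = 0.492). KRT8 differed by 0.35 ± 0.14, KRT80 by 0.34 ± 0.16, KRT18 by 0.30 ± 0.13 and KRT19 by -0.15 ± 0.30. KRT7, KRT8, KRT18 and KRT80 were higher in stiff-to-soft in 3 of 3 replicate numbers, as were 18.1% of genes. Of the 5 genes 0 were called, and 0.00648% of genes were called with the block.

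LPA-to-FAKi cells had levels above soft-to-soft in 3 of 3 replicate numbers for KRT7, KRT8, KRT18 and KRT80, as did 17.4% of all genes tested. With the block KRT80 differed by 0.72 ± 0.16 on the log2 scale (edgeR adjusted p = 0.0764), KRT8 by 0.61 ± 0.14 (adjusted p = 0.0847), KRT7 by 0.58 ± 0.15 (adjusted p = 0.104) and KRT18 by 0.57 ± 0.13 (adjusted p = 0.0732). KRT19 differed by 0.25 ± 0.30 (adjusted p = 0.713). None of the 5 was called, while 0.564% of all genes were, and without the block 0% were, with 3.55% at an unadjusted p under 0.05. For KRT7 the groups did not overlap, as for 3.04% of genes. DESeq2 with the block called KRT18, KRT8 and KRT7 (adjusted p = 0.00117, 0.00251 and 0.00783), among 704 genes. In edgeR with the block, calls changed when libraries were left out: without LPA-to-FAKi replicate 3, KRT80, KRT18 and KRT8 were called (edgeR adjusted p = 0.0275, 0.029 and 0.0486), and without LPA-to-soft replicate 1, KRT8 and KRT80 were (adjusted p = 0.041 and 0.0493).

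Replating with the FAK inhibitor was compared with replating without it after the same LPA conditioning. With the block all 5 estimates were positive, from 0.19 ± 0.14 for KRT7 to 0.50 ± 0.13 for KRT18 on the log2 scale (edgeR adjusted p = 0.463 and 0.0856). KRT8 differed by 0.45 ± 0.14 (adjusted p = 0.116) and KRT80 by 0.43 ± 0.16 (adjusted p = 0.159). The differences were uneven over replicate numbers. Replicate number 1 gave 1.05 for KRT8, 0.98 for KRT18 and 1.04 for KRT80, while numbers 2 and 3 gave 0.15 and 0.15, 0.29 and 0.20, and 0.28 and -0.04. KRT8 and KRT18 were higher with the inhibitor in 3 of 3, as were 22.9% of genes. Of the 5 genes 0 were called in edgeR, and 0% of all genes with or without the block, with 22.3% at an unadjusted p under 0.05 with the block and 5.43% without. DESeq2 with the block called KRT18 (adjusted p = 0.0067) and KRT8 (adjusted p = 0.0318), among 1231 genes.

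The comparisons across classes gave no called member. Between learned and not learned, KRT7 differed by 0.30 ± 0.17 on the log2 scale with the block (edgeR adjusted p = 0.588, higher in 3 of 3 replicate numbers), and the other 4 genes by -0.25 to 0.07. Of all genes tested 0% were called without the block, with 2.89% at an unadjusted p under 0.05, and 0.00648% were called with it. The 2 conditions of the not learned class lay at opposite ends for these genes: LPA-to-FAKi had the highest mean of KRT8, KRT18, KRT19 and KRT80, and soft-to-soft the lowest mean of KRT7, KRT8, KRT18 and KRT80. Between stiff-to-soft and LPA-to-FAKi the blocked differences were 0.23 ± 0.14 for KRT7, -0.10 ± 0.14 for KRT8, -0.20 ± 0.13 for KRT18, -0.45 ± 0.30 for KRT19 and -0.09 ± 0.16 for KRT80, with 0 called and 0.0324% of genes called. Without the block 0 of the 5 and 0% of genes were called there, with 2.93% of genes at an unadjusted p under 0.05.

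Replicate number held more of the spread than condition for KRT7, KRT8, KRT18 and KRT80, but not for KRT19. It held 80.8% of the sum of squares of log2 CPM for KRT8, 67.3% for KRT18, 52.9% for KRT7 and 48.4% for KRT80, against a median of 50.5% over all genes. Condition held 36.8% for KRT7 and 36.6% for KRT80, against a median of 19.3%, and 24.2% for KRT18, 19.8% for KRT19 and 13.6% for KRT8. For KRT19, replicate number held 6.25% and 73.9% was left to neither.

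Replicate number 2 was the highest in all 4 conditions for KRT7, KRT8, KRT18 and KRT80, as it was for 9.26% of genes. With condition in the model, KRT8 was 1.46 ± 0.13 higher in replicate number 2 than in 1 on the log2 scale (edgeR adjusted p = 3.39e-05, higher in 4 of 4 conditions). KRT18 was higher by 0.91 ± 0.11 (adjusted p = 0.000173), KRT7 by 0.88 ± 0.13 (adjusted p = 0.000471) and KRT80 by 0.58 ± 0.14 (adjusted p = 0.00879). These 4 of 5 genes were called where 36% of all genes were, 19% as higher. In replicate number 3 against 1, KRT8 was 0.70 ± 0.12 higher (adjusted p = 0.00126) and KRT18 0.44 ± 0.11 (adjusted p = 0.00834), 2 of 5 where 39.8% of all genes were called and 48.2% had an unadjusted p under 0.05. In 3 against 2, KRT8, KRT80, KRT7 and KRT18 gave -0.76, -0.76, -0.58 and -0.48, all called as lower, where 23.7% of genes were called and 37% had an unadjusted p under 0.05. KRT19 was called in none of the 3. The labels do not say what a replicate number stands for.

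The balance of the pair KRT8 and KRT18 followed the replicate number. The ratio of KRT8 to KRT18 counts lay between 0.994 and 1.22 in the 4 libraries of replicate number 1, between 1.45 and 1.71 in number 2 and between 1.27 and 1.32 in number 3, and these ranges did not overlap. Across conditions the mean ratio was 1.25 ± 0.203 in soft-to-soft, 1.29 ± 0.252 in LPA-to-FAKi, 1.34 ± 0.356 in LPA-to-soft and 1.37 ± 0.188 in stiff-to-soft (n = 3 each). These means lay closer together than their SDs, which contain the spread between replicate numbers. Within replicate numbers 1, 2 and 3, stiff-to-soft had ratios of 1.22, 1.58 and 1.31, each above soft-to-soft at 1.04, 1.45 and 1.27. LPA-to-FAKi ratios (1.05, 1.55 and 1.273) were also above, in number 3 against 1.271. Ratios of LPA-to-soft were 0.994, 1.71 and 1.32, lower than soft-to-soft in number 1 only. The paired differences of the ratio were not tested.

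**Figure D3:**
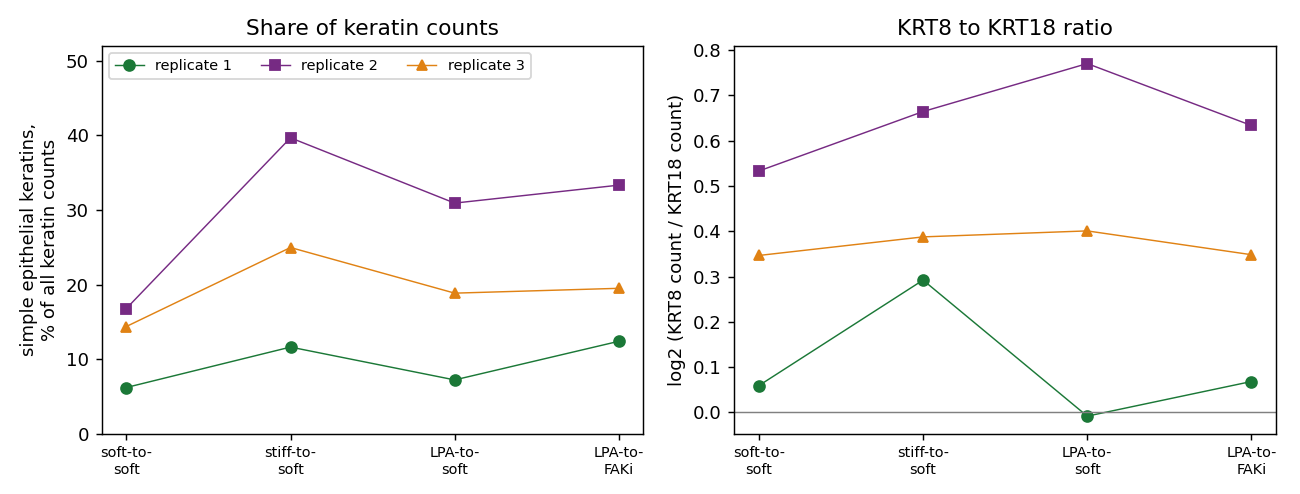
Left, share of all keratin counts held by the 5 simple epithelial keratins (%, axis from 0); right, log2 ratio of KRT8 to KRT18 counts, both by condition with 1 line per replicate number. For each replicate number the share is lowest in soft-to-soft, and the ratio is ordered 2, 3, 1 by replicate number in every condition.

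Soft-to-soft cells had the smallest share of simple epithelial keratins in their keratin counts, within each replicate number. The 5 genes held 6.20%, 16.8% and 14.4% of all keratin CPM in soft-to-soft replicates 1, 2 and 3. The shares were 11.6%, 39.7% and 24.97% in stiff-to-soft, 7.22%, 30.9% and 18.9% in LPA-to-soft, and 12.4%, 33.3% and 19.5% in LPA-to-FAKi. Number 1 was below 3 and 3 below 2 in every condition. The 17 stratified keratins summed to 9513 to 16263 CPM in soft-to-soft libraries and 5010 to 12163 CPM in stiff-to-soft. They summed to 6521 to 13576 CPM in LPA-to-soft and 6761 to 15053 CPM in LPA-to-FAKi. The share therefore also rises where stratified keratins fall. In replicate 1 the 5 genes summed to 1060 CPM in LPA-to-soft and 1081 CPM in soft-to-soft, although the share was higher in LPA-to-soft.

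Stratified keratins had estimates of the opposite sign to KRT7, KRT8, KRT18 and KRT80 after stiff conditioning, and of the same sign as KRT19 and as KRT20 (-0.72) and KRT23 (-0.06). With the block all 17 had a negative estimate (median -0.81 on the log2 scale), and 4 of 17 fell in edgeR. Of all genes tested 49.3% had a positive estimate in that fit and 0.343% were called lower. KRT15, a basal keratin, fell by 0.73 ± 0.07 (adjusted p = 0.00384), and KRT13, a keratin of oral mucosa above the basal layer, fell by 1.41 ± 0.20 (adjusted p = 0.017). KRT17, a stress keratin, fell by 0.75 ± 0.11 (adjusted p = 0.0185), and KRT14, the basal partner of KRT5, fell by 1.68 ± 0.32 (adjusted p = 0.048). Without the block 0 of 17 were called. In LPA-to-FAKi against soft-to-soft 16 of 17 were negative and 3 fell with the block in edgeR. There 50.4% of all genes were positive and 0.408% were called lower. The stress keratins KRT6A, KRT6C, KRT16 and KRT17 gave -0.14 ± 0.25, -0.01 ± 0.40, -0.02 ± 0.33 and -0.23 ± 0.11 in that fit. KRT6B, the positive 1, gave 0.13 ± 0.28. KRT15 fell by 0.55 ± 0.07 (adjusted p = 0.0192), and the differentiation keratins KRT1 and KRT4 gave -3.38 ± 0.53 (adjusted p = 0.0251) and -2.75 ± 0.48 (adjusted p = 0.0383). In LPA-to-soft all 17 were negative and 0 were called. The lists of simple and stratified keratins were chosen with earlier results of these data known, and both comparisons share the soft-to-soft libraries.

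**Figure D4:**
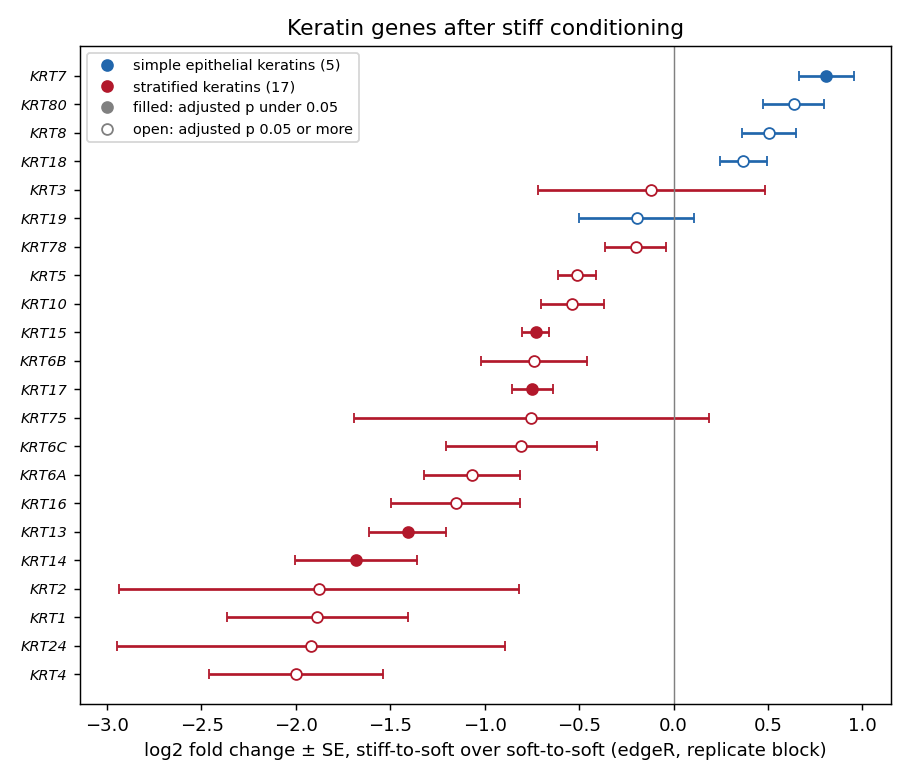
Log2 fold changes ± SE of stiff-to-soft over soft-to-soft (edgeR with the replicate block) for 5 simple epithelial and 17 stratified keratins; filled points have an adjusted p under 0.05. KRT7 is the filled point above 0, at 0.81, and KRT15, KRT17, KRT13 and KRT14 are the filled points below 0.

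In replicate number 2 against 1, where KRT7, KRT8, KRT18 and KRT80 were higher, all 17 stratified keratins were negative and 13 were called lower (median -1.19), where 17% of all genes were called lower. In number 3 against 1, where KRT8 and KRT18 were higher and KRT80 (-0.18) and KRT19 (-0.23) were negative, 16 of 17 were negative and 14 were called lower, against 19.2% of all genes. In number 3 against 2 all 5 simple keratins were negative, and so were 10 of 17 stratified keratins, 4 of them called lower and 1 of the other 7 called higher, where 12.2% and 11.6% of all genes were. Squamous carcinoma markers include KRT5, KRT14, KRT6A and KRT17 of the stratified list, so their calls and their sum are not separate from it. Of these markers 7 of 8 were called lower in number 2 against 1. For stiff-to-soft against soft-to-soft with the block 3 of 8 were (KRT14, KRT17 and DSG3), where 0.343% of all genes were called lower. The summed level of the 8 markers was 10294 to 15876 CPM in soft-to-soft and 5946 to 12393 CPM in stiff-to-soft. Its part in the differences of the simple keratins was not tested. In these bulk samples, fewer cells of a kind and less RNA per cell cannot be told apart.

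Genes for proteins that anchor keratins to desmosomes and other junctions mostly had negative estimates in the comparison in which KRT7 was called. Of 15 anchor and plakin genes, 13 were negative for stiff-to-soft against soft-to-soft with the block (median -0.28), and 2 were called lower. Of all genes tested 49.3% were positive in that fit and 0.343% were called lower. DSG3, a desmosomal cadherin of squamous epithelium, fell by 0.66 ± 0.07 (edgeR adjusted p = 0.004), and PKP1, a desmosomal plaque protein of stratified epithelium, fell by 1.10 ± 0.20 (adjusted p = 0.042). DSC3, another desmosomal cadherin, fell by 0.59 ± 0.11 in LPA-to-FAKi against soft-to-soft (adjusted p = 0.0468). Of 20 genes that bind keratins or act in their turnover, 0 were called in any comparison of conditions, and 12 of 20 were negative for stiff-to-soft against soft-to-soft (median -0.05). Other intermediate filament genes also had 0 calls in comparisons of conditions, among 8 of 13 that passed the filter. Vimentin (VIM), the mesenchymal filament protein, lay between 0.297 and 6.85 CPM, with means of 6.01, 2.24 and 0.476 CPM in replicate numbers 1, 2 and 3.

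Among 27 transcription factors of simple and stratified epithelium that passed the filter, 22 were negative for stiff-to-soft against soft-to-soft with the block and 3 were called. Of all genes tested 49.3% were positive in that fit and 0.583% were called. SOX2, a squamous lineage factor, fell by 1.14 ± 0.15 (edgeR adjusted p = 0.012), and KLF5, a factor of basal epithelial cells, fell by 0.54 ± 0.07 (adjusted p = 0.012). ETS1 rose by 0.74 ± 0.11 (adjusted p = 0.0185). In the other comparisons of conditions 0 of the 27 were called. Of 16 surface and secretory genes of simple epithelium that passed the filter, 0 were called in any comparison of conditions, and 9 were positive and 7 negative for stiff-to-soft against soft-to-soft (median 0.15). EPCAM, an adhesion protein of simple epithelia, lay between 179 and 311 CPM.

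The members moved together unequally. After the mean of each replicate number was removed, KRT8 and KRT18 correlated over the 12 libraries with r = 0.961, KRT8 and KRT80 with 0.951, KRT18 and KRT80 with 0.907 and KRT7 and KRT80 with 0.892. KRT7 followed KRT8 (0.816) and KRT18 (0.704) less closely, and KRT19 followed none (0.0964 to 0.408). These are descriptions without a test, over libraries that share conditions and replicate numbers. By the same measure the genes most like KRT7 were HMCN2 (0.976), CASC10 (0.960) and CD34 (0.958), and those most like KRT8 were ANKRD10 (0.965), KRT18 and CCDC43 (0.957). KRT18 was most like CCDC124 (0.981), PSMB7 (0.977) and SYTL3 (0.972), KRT80 most like TMEM62 (0.984), DHX32 (0.958) and TPM3P9 (0.957), and KRT19 most like HIST1H2BD (0.927), LEMD1 (0.925) and TAF7 (0.925).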

How the data were processed

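RNA was isolated with an RNeasy Mini kit and libraries were made with an Illumina TruSeq Stranded kit, per the labels' protocols. The authors deposited whole-number read counts per gene symbol for 12 libraries and a normalized log2 table. Tools listed in the submitters' processing notes are cutadapt, FastQC, STAR, HTSeq and DESeq2, with genome build hg19; their settings and the annotation are not stated there. The deposited log2 table held each count multiplied by a library factor, plus 1, in log2 (relative range of the factor 6.94e-09), and entered no test.

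Tests on counts used edgeR 4.0.16 (R 4.3.3) with TMM scaling, filterByExpr by condition (15437 genes), quasi-likelihood F test, Benjamini-Hochberg adjustment, and a model of 4 conditions over all 12 libraries, or of 2 classes. SE is the log2 fold change divided by the square root of F. Log2 CPM used a prior count of 2. Each model was also fitted with a block for replicate number. The numbers come from the sample labels and pair the libraries by a threshold of 0.1: 18 same-number pairs correlated with r of at least 0.312, and 12 of 12 libraries correlated best with their own number. Alternatives were DESeq2 1.42.0, limma 3.58.1 voom, another scaling, no filter, left-out libraries and halved counts. Scripts were tested on simulated data. All 5 members are named, with the 3 genes most like each by correlation and up to 4 called genes per list and comparison. Members and lists were chosen with earlier results of these data known. Transcripts were aligned with Biopython on GENCODE 29. An alignment of short coding stretches and 1 marker gene are not reported here.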

Additional observations from a re-analysis of the deposited data

Results flagged for a closer look

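KRT19 measured 4.31 CPM in LPA-to-FAKi replicate 1, the highest of the 6 libraries of the not learned class and far from the others, which lay between 1.97 and 2.73 CPM. It was the 1 outlying value by Dixon's criterion among 25 groups checked, and chance gives about 1 in 20.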

How the results depend on the processing

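Another library scaling, no filter on low counts and, without the replicate block, DESeq2 or limma voom left the number of members called at 0 in all 7 comparisons of conditions and classes. With the replicate block the number called between stiff-to-soft and soft-to-soft was 1 with edgeR (KRT7), 2 with DESeq2, 1 with limma voom and 1 with the counts of 10 libraries halved; all genes called numbered 90, 456, 119 and 100, against 0, 4, 0 and 0 by the same fits without the block. The block with DESeq2 gave 2 members for LPA-to-FAKi against LPA-to-soft and 3 for LPA-to-FAKi against soft-to-soft; the replicate block changed no other count of members in the comparisons of conditions and classes. Leaving out 1 library at a time, with or without the block, gave 0 to 4 members for stiff-to-soft against soft-to-soft and 0 to 3 for LPA-to-FAKi against soft-to-soft. With condition left out of the model, 1 member was called in replicate number 3 against 1 and 2 in 3 against 2. The cause was not tested.

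Some estimates changed sign, none of them called. Without soft-to-soft replicates 1 and 2, KRT19 gave 0.0062 on the log2 scale in LPA-to-soft against soft-to-soft and 0.057 in replicate number 2 against 1, where limma voom gave 0.0107. Between the classes KRT8 then gave -0.0545 (-0.16 with the block) and KRT80 -0.0655 (-0.15 with the block). Leaving out 1 library at a time moved some estimates across 0, in ranges that pool the fits with and without the block. Against soft-to-soft in LPA-to-soft, KRT8 ranged from -0.35 to 0.66, KRT18 from -0.23 to 0.38, KRT19 from -0.16 to 0.0521 and KRT80 from -0.00718 to 0.52. With the block alone, KRT8 stayed between 0.026 and 0.34 there, KRT18 between 0.0078 and 0.18 and KRT80 between 0.17 and 0.47. KRT19 ranged from -0.47 to 0.14 in stiff-to-soft and from -0.20 to 0.50 in LPA-to-FAKi, both against soft-to-soft. In LPA-to-FAKi against LPA-to-soft, KRT7 ranged from -0.14 to 0.57, KRT8 from -0.0775 to 0.88 and KRT19 from -0.14 to 0.54. With the block alone, KRT7 stayed between 0.044 and 0.36 there and KRT8 between 0.24 and 0.58. In stiff-to-soft against LPA-to-soft, KRT8 ranged from -0.14 to 0.82 (0.16 to 0.47 with the block alone) and KRT19 from -0.43 to 0.17. In stiff-to-soft against LPA-to-FAKi, KRT7 ranged from -0.0639 to 0.53, KRT8 from -0.45 to 0.33, KRT18 from -0.40 to 0.0568 and KRT80 from -0.38 to 0.15. With the block alone, KRT7 stayed between 0.14 and 0.36 there. Between the classes, KRT8 ranged from -0.13 to 0.29, KRT18 from -0.18 to 0.0916 and KRT80 from -0.0768 to 0.28. Between replicate numbers, KRT19 ranged from -0.31 to 0.28 in 2 against 1, from -0.50 to 0.0713 in 3 against 1 and from -0.31 to 0.0134 in 3 against 2. KRT19 rests on 138 to 339 counts per library, so its estimates carry the largest counting error of the 5.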

Other observations

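The genes beside KRT7 on chromosome 12 include hair keratins, which hard structures such as hair and nail use and which were chosen for description here after their values were seen. KRT81 measured 9.60 CPM on average in stiff-to-soft and 1.74 CPM in soft-to-soft, and was higher by 2.18 ± 0.30 on the log2 scale with the replicate block (edgeR adjusted p = 0.0134). Without the block it was not called. The differences within replicate numbers 1, 2 and 3 were 1.41, 3.24 and 1.72. Its neighbour KRT86 measured 3.88 and 1.52 CPM and differed by 1.23 ± 0.36 (adjusted p = 0.188). KRT81 and KRT86 are near-identical copies, so reads may have been split between them. On the other side of KRT80, ATG101 differed by 0.04 ± 0.08 (adjusted p = 0.925) and NR4A1, the gene after it, by -1.22 ± 0.28 (adjusted p = 0.089, lower in 3 of 3 replicate numbers). Beyond the hair keratins, KRT75, KRT6B, KRT6C and KRT6A gave -0.75, -0.74, -0.81 and -1.07, none of them called.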
